A study of Arabidopsis thaliana with 12 samples.

Results

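The tiles described here are 1 kb stretches of the *Arabidopsis thaliana* genome at which the H3K27me3 ChIP signal was lower in *brm-1* than in wild-type Col while it was retained in *clf-29*. A tile was a member where both Col ChIP replicates had at least 10 RPM (reads per 1000000 kept reads of the library), the higher *brm-1* replicate was at most 0.67 times the lower Col replicate, and the *clf-29* mean was above 0.67 times the Col mean. This rule was met by 113 of the 119149 tiles on chromosomes 1 to 5. Of the 23661 tiles with at least 10 RPM in both Col replicates, 802 met the *brm-1* bound, and 689 of these were left out because *clf-29* was lowered as well. The levels in Col, *brm-1* and *clf-29* therefore chose the members and are given below as a description, without a test. The *brm-1 clf-29* libraries and the 4 inputs were not used by the rule.

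The plants were 14-day-old seedlings of 4 genotypes, all in the Col background and grown on the same long-day schedule: Col itself, *brm-1* (SALK_030046, a T-DNA null allele), *clf-29* (SALK_021003, a T-DNA allele) and the double mutant *brm-1 clf-29*. Each genotype had 2 ChIP libraries of pooled whole seedlings, described in the methods as biological replicates, and 1 input library, so that fewer cells with the mark and less of the mark per cell cannot be told apart. The ChIP libraries held between 3901085 and 7277025 reads, of which between 2112103 and 3654258 remained after 1 read was kept per position and strand, and 10 RPM corresponded to between 21.1 and 36.5 reads. The Col replicates differed by less than the sampling noise (chi-square per degree of freedom of 0.925 over the 65424 tiles tested, against 1.37 to 1.78 for the other genotypes) and are taken here as 1 sample, with both values printed and no SD for Col. The fit used below holds the Col libraries as 2 replicates, as the labels give them. All SEs and adjusted p-values printed come from that fit. Counts with Col as 1 sample, which were smaller, are given later with the other alternatives.

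H3K27me3 is a mark of repressed genes that Polycomb repressive complex 2 (PRC2) sets on histone H3. CURLY LEAF (CLF) is a histone methyltransferase subunit of this complex, and SWINGER (SWN) is its partly redundant relative, so the mark is not lost everywhere in *clf* mutants. BRAHMA (BRM) is the ATPase of a SWI/SNF chromatin remodelling complex that moves or removes nucleosomes. BRM is a Trithorax-group protein, a class that is known for opposing Polycomb repression.

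The sequences of 4 member windows of 300 bp are shown because they carry the lowest *brm-1* to Col ratios among runs with enrichment over input and, for *AT5G61120*, the highest Col level among the enriched members, a window added after the values were seen. Each is the window of its tile with the most Col reads among windows without untranslated bases, on the plus strand of TAIR10. Capitals mark GAGAGA, the telobox AAACCCTA, the G-box CACGTG or the auxin response element TGTCTC on either strand. The *WRKY23* window, chr2:19405313-19405612, holds 165 coding and 135 intron bases of a gene on the minus strand and 1 GAGAGA. The *AT5G17850* window, chr5:5900002-5900301, lies in coding sequence and holds 1 GAGAGA. The *CRK14* window, chr4:12156541-12156840, is coding as well, and its G-box and auxin response element overlap in 1 run of capitals. The *AT5G61120* window, chr5:24584701-24585000, lies in an intron and held none of the 4 motifs.
WRKY23: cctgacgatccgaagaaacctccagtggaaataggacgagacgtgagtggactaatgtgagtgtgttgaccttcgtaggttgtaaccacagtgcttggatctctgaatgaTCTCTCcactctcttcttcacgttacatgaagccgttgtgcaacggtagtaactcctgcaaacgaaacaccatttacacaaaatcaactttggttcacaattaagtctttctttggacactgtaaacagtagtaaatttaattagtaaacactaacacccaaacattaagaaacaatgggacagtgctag
AT5G17850: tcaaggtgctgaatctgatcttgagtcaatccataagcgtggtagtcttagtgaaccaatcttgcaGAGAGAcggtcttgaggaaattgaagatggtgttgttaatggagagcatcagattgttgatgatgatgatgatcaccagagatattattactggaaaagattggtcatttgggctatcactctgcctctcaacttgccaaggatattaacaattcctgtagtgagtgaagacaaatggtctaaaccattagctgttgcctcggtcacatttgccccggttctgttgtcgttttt
CRK14: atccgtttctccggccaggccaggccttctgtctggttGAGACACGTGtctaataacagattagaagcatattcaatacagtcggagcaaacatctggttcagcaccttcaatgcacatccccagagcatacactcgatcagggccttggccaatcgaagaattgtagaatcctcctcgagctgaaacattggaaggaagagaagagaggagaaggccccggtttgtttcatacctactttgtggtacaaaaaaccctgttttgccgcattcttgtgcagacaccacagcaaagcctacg
AT5G61120: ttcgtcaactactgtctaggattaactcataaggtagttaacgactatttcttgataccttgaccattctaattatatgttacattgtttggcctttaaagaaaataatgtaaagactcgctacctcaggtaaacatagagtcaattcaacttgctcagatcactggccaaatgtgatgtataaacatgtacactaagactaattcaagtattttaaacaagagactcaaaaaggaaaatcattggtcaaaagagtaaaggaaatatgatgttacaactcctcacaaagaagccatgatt

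The name of this group of tiles held for a minority of its members when Col was set against its own input. A tile was called enriched where (ChIP RPM + 1)/(input RPM + 1) was at least 2 in both Col replicates. By this measure 27 of the 113 members carried the mark in Col, 60 lay below the input in both Col replicates, and 26 lay between. The share of enriched tiles was 23.9% among the members and 64.9% among all tiles with 10 RPM in Col. The 3 kinds of member are described apart.

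**Figure D1:**
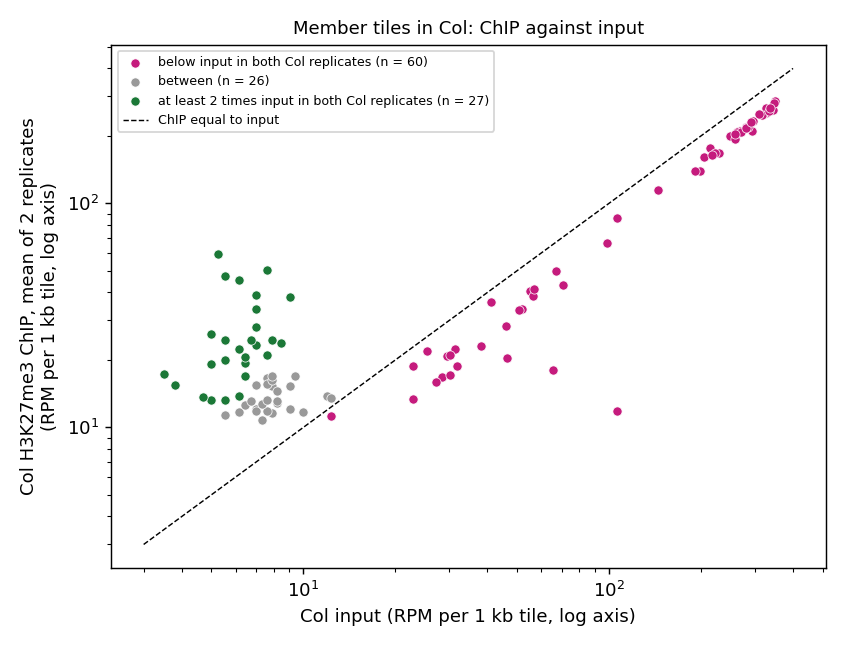
Mean Col ChIP level against Col input for the 113 members, in RPM per 1 kb tile on log axes, with 1 point per tile. The 27 enriched members lie above the dashed line of equal ChIP and input at inputs of 3.51 to 9.06 RPM, while the 60 members below the line reach inputs of 350 RPM.

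At the 27 enriched members, Col had median levels of 22.4 and 23.2 RPM, against 10.0 and 9.39 RPM in *brm-1*, 19.6 and 18.9 RPM in *clf-29*, and 8.52 and 8.30 RPM in *brm-1 clf-29*. The double mutant thus lay near *brm-1* and below *clf-29* on this scale. The *brm-1* to Col ratio of the means ran from 0.13 to 0.63 with a median of 0.45. Measured against its own input, the mark was at least 2 times the input in both replicates at 16 of these 27 tiles in *clf-29*, at 5 in *brm-1 clf-29* and at 3 in *brm-1*. The input had medians of 6.14 RPM in Col, 7.58 in *brm-1*, 7.94 in *clf-29* and 7.69 in *brm-1 clf-29*, and so was lowest in Col. The *brm-1* to Col input ratio had a median of 1.21 here and 1.07 over the enriched tiles with 10 RPM in Col. Choosing tiles on the Col ratio favours a low Col input, so the counts of 16, 5 and 3 are not on equal terms with Col. All 27 tiles overlapped an annotated gene by at least 1 bp, 25 of them a protein-coding gene, compared with 79.4% of the enriched tiles with 10 RPM in Col that overlapped a gene.

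**Figure D2:**
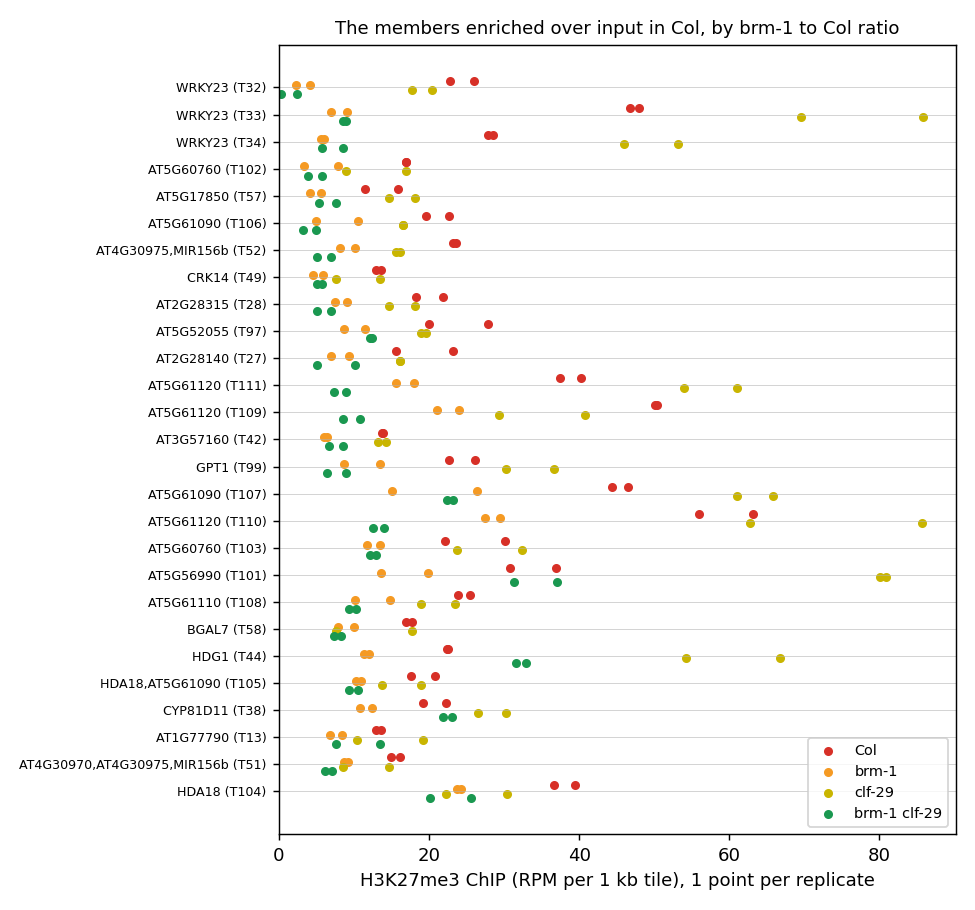
H3K27me3 ChIP level of each of the 27 enriched members in RPM per 1 kb tile, with 1 point per replicate and the tiles ordered by the brm-1 to Col ratio. Both brm-1 points lie left of both Col points at every tile, as the rule requires, and the brm-1 clf-29 points lie left of both clf-29 points at 24 of the 27.

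*WRKY23* (AT2G47260, chr2:19404802-19407098, minus strand), which encodes a WRKY transcription factor, had the lowest *brm-1* to Col ratios among the enriched members, over a run of 3 tiles from chr2:19404001 to 19407000. The middle tile, which holds 577 coding, 379 intron and 44 untranslated bases, had 46.8 and 48.0 RPM in Col, 6.95 and 9.02 in *brm-1*, 85.9 and 69.6 in *clf-29*, and 8.52 and 8.94 in *brm-1 clf-29*. The *clf-29* replicates were the highest, and no replicate of the genotypes with *brm-1* exceeded 9.02 RPM, beside a Col input of 5.55 RPM. The tile next to the start of the gene (19406001 to 19407000) had 28.5 and 27.8 RPM in Col, 5.56 and 6.01 in *brm-1*, 53.1 and 45.9 in *clf-29*, and 8.52 and 5.75 in *brm-1 clf-29*. The tile at its 3′ end, of which 801 bases lie outside the gene, had 25.997 and 22.9 RPM in Col, 4.17 and 2.25 in *brm-1*, 17.7 and 20.4 in *clf-29*, and 2.44 and 0.319 in *brm-1 clf-29*, where the last value is 1 read. The replicates of *clf-29* lay above those of Col at the middle tile and at the tile next to the start, and below them at the 3′ tile. *WRKY23* was the only 1 of 67 annotated *WRKY* genes that overlapped a member. The 67 include genes, such as *WRKY4*, without a tile of 10 RPM in both Col replicates, which could not hold a member.

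**Figure D3:**
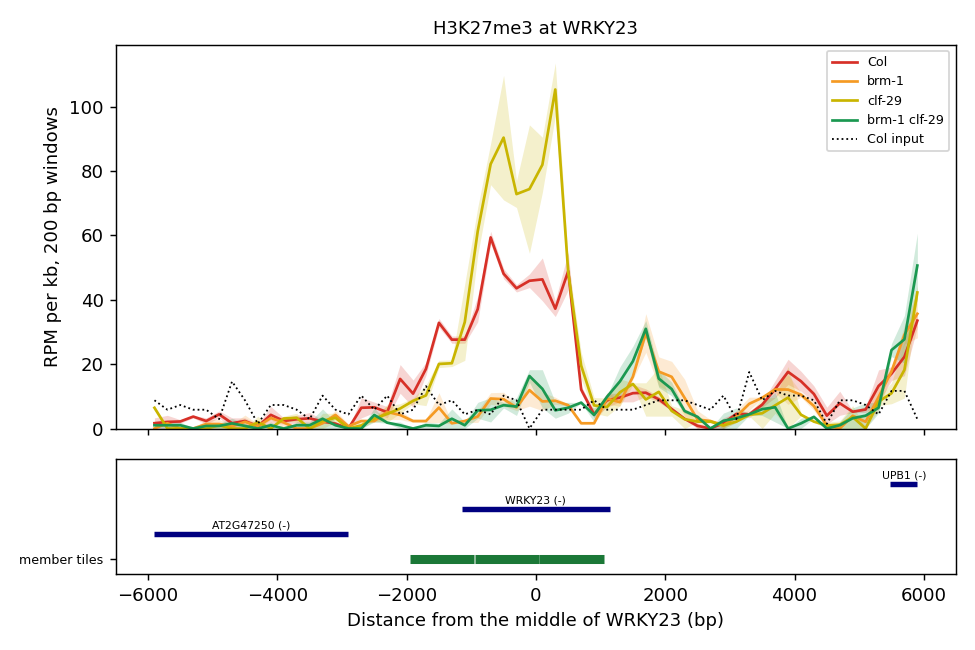
H3K27me3 along WRKY23 in RPM per kb over 200 bp windows, against the distance in bp from the middle of the gene, with the mean of 2 replicates as a line and their range as a band. The 3 member tiles (green bars) cover the region where Col and clf-29 rise above the Col input (dotted), while brm-1 and brm-1 clf-29 stay far below both.

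A group of neighbouring genes on the lower arm of chromosome 5 held 8 enriched members between 24573001 and 24586000: *HDA18* (AT5G61070), which encodes a histone deacetylase that acts in root epidermal cell patterning, *AT5G61090*, *AT5G61110* and *AT5G61120*, all on the minus strand. The highest Col level of all enriched members was that of the *AT5G61120* tile at 24584001 to 24585000, with 63.2 and 56.0 RPM in Col, 29.5 and 27.4 in *brm-1*, 62.8 and 85.7 in *clf-29*, and 12.6 and 14.0 in *brm-1 clf-29*. The next tile, over the start of *AT5G61120*, had 40.2 and 37.4 RPM in Col, 15.6 and 18.03 in *brm-1*, 53.9 and 61.1 in *clf-29*, and 7.31 and 8.94 in *brm-1 clf-29*. At both tiles the double mutant was the lowest genotype, with both of its replicates below both *brm-1* replicates. The double mutant was the lowest at the tile at 24583001 to 24584000 too, with 50.1 and 50.3 RPM in Col, 23.9 and 21.0 in *brm-1*, 40.8 and 29.4 in *clf-29*, and 8.52 and 10.9 in *brm-1 clf-29*.

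The 3 members at *AT5G61090* differed in level. The tile nearest to its start had 46.5 and 44.4 RPM in Col, 26.4 and 15.03 in *brm-1*, 65.8 and 61.1 in *clf-29*, and 23.1 and 22.4 in *brm-1 clf-29*, so that the double mutant lay within the spread of the *brm-1* replicates. The tile shared by the 3′ end of *AT5G61090* and the start of *HDA18* had 20.8 and 17.6 RPM in Col, 10.3 and 10.9 in *brm-1*, 18.9 and 13.7 in *clf-29*, and 9.34 and 10.5 in *brm-1 clf-29*. The tile at 24576001 had 22.7 and 19.5 RPM in Col, 10.6 and 4.88 in *brm-1*, 16.6 and 16.6 in *clf-29*, and 4.87 and 3.19 in *brm-1 clf-29*. At *AT5G61110* the levels were 25.4 and 23.8 RPM in Col, 14.7 and 10.1 in *brm-1*, 23.5 and 18.9 in *clf-29*, and 9.34 and 10.2 in *brm-1 clf-29*. The *HDA18* tile at 24573001 stood apart from the rest of the cluster, with 36.7 and 39.4 RPM in Col, 24.2 and 23.7 in *brm-1*, 30.4 and 22.3 in *clf-29*, and 25.6 and 20.1 in *brm-1 clf-29*, where the 3 mutants overlapped. *AT5G61100*, which lies between *AT5G61090* and *AT5G61110*, overlapped no member because both of its tiles met the *brm-1* bound but not the *clf-29* bound.

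**Figure D4:**
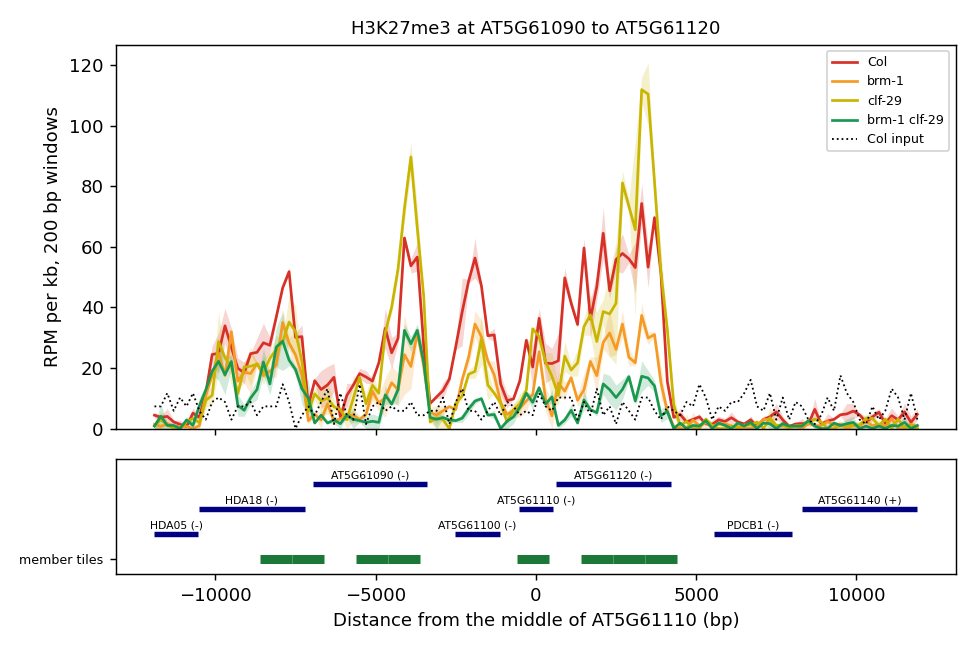
H3K27me3 from HDA18 to AT5G61120 in RPM per kb over 200 bp windows, against the distance in bp from the middle of AT5G61110, with the mean of 2 replicates as a line and their range as a band. The 8 member tiles are the green bars. The brm-1 clf-29 line runs below the brm-1 line over AT5G61120 and close to it over HDA18.

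The other enriched members lay at single genes. At *GPT1* (AT5G54800), which encodes a plastid glucose 6-phosphate/phosphate translocator, the tile over the gene start had 22.7 and 26.2 RPM in Col, 8.62 and 13.5 in *brm-1*, 36.6 and 30.3 in *clf-29*, and 8.93 and 6.39 in *brm-1 clf-29*. The adjacent tile in the gene body belonged to the members between the classes, with 16.97 and 15.6 RPM in Col, 3.06 and 8.26 in *brm-1*, 23.9 and 14.2 in *clf-29*, and 2.03 and 4.15 in *brm-1 clf-29*. At the *GPT1* tiles, as at *WRKY23*, the *brm-1* and double mutant replicates all lay below the Col and *clf-29* replicates. This is not particular to these genes. The rule sets *brm-1* below Col, and both double mutant replicates lay below both *clf-29* replicates at 24 of the 27 enriched members.

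The gene of the microRNA miR156b (*MIR156b*, chr4:15074899-15075081, plus strand), whose mature product targets *SPL* transcripts and delays the change from the juvenile to the adult phase, spans the border of 2 enriched members and lies inside the longer non-coding RNA gene *AT4G30975*. The tile at 15075001 had 23.5 and 23.2 RPM in Col, 8.07 and 10.1 in *brm-1*, 16.2 and 15.6 in *clf-29*, and 6.90 and 5.11 in *brm-1 clf-29*. The tile at 15074001 was lower in Col, with 16.1 and 14.9 RPM, and its *clf-29* replicates of 8.47 and 14.7 RPM reached down to the *brm-1* values of 9.18 and 8.64. ChIP reads carry no strand of transcription, so the signal cannot be assigned to *MIR156b* rather than to *AT4G30975* or, at 15074001, to the start of *AT4G30970*.

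*AT5G60760* held a pair of adjacent enriched members in its body. The tile at 24441001 had 22.2 and 30.1 RPM in Col, 11.7 and 13.5 in *brm-1*, 32.3 and 23.7 in *clf-29*, and 13.0 and 12.1 in *brm-1 clf-29*. The tile at 24440001 had 16.97 and 16.9 RPM in Col, 3.34 and 7.89 in *brm-1*, 16.9 and 8.996 in *clf-29*, and 5.68 and 3.83 in *brm-1 clf-29*. *AT2G28315*, annotated as a nucleotide/sugar transporter, had 21.9 and 18.2 RPM in Col, 7.51 and 9.02 in *brm-1*, 18.1 and 14.7 in *clf-29*, and 6.90 and 5.11 in *brm-1 clf-29*. *AT5G17850* had 11.49 and 15.9 RPM in Col, 5.56 and 4.13 in *brm-1*, 18.1 and 14.7 in *clf-29*, and 5.28 and 7.66 in *brm-1 clf-29*, close to the minimum of 10 RPM. At these 3 genes neither genotype with *brm-1* reached the lower *clf-29* replicate. *CRK14*, which encodes a cysteine-rich receptor-like kinase, had 12.9 and 13.6 RPM in Col, 5.84 and 4.51 in *brm-1*, 13.5 and 7.58 in *clf-29*, and 5.68 and 5.11 in *brm-1 clf-29*. *AT2G28140*, *AT3G57160*, *AT1G77790* and the pseudogene *AT5G52055* were further enriched members, with Col levels between 12.9 and 27.8 RPM and *brm-1* levels between 6.01 and 11.4 RPM. A tile of the beta-galactosidase gene *BGAL7*, named to complete the set, had 17.8 and 16.9 RPM in Col, 10.0 and 7.89 in *brm-1*, 17.7 and 7.58 in *clf-29*, and 7.31 and 8.30 in *brm-1 clf-29*, so that its *clf-29* replicates spanned the range from Col to *brm-1*.

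At 3 enriched members the double mutant mean was more than 1.5 times the *brm-1* mean. *CYP81D11*, a cytochrome P450 gene, had 19.2 and 22.2 RPM in Col, 10.8 and 12.4 in *brm-1*, 26.6 and 30.3 in *clf-29*, and 21.9 and 22.99 in *brm-1 clf-29*. *HDG1*, a homeodomain-leucine zipper class IV gene, had 22.4 and 22.5 RPM in Col, 12.0 and 11.3 in *brm-1*, 54.3 and 66.8 in *clf-29*, and 32.9 and 31.6 in *brm-1 clf-29*. *AT5G56990* had 36.9 and 30.8 RPM in Col, 13.6 and 19.9 in *brm-1*, 80.9 and 80.0 in *clf-29*, and 31.3 and 37.0 in *brm-1 clf-29*. At *HDG1* and *AT5G56990*, both chosen after their values were seen, the *clf-29* replicates exceeded every Col replicate and the double mutant lay between *clf-29* and *brm-1*.

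The comparison of *brm-1 clf-29* with *clf-29* asks whether the tiles lowered by *brm-1* in the presence of CLF were also lowered by *brm-1* in its absence. The double mutant libraries are independent of the rule, whereas the *clf-29* libraries entered it as a lower bound on their mean, which leaves out tiles with low *clf-29* values. In limma's fit over the 65424 tiles with at least 10 kept reads in at least 2 ChIP libraries, 49 tiles (0.0749%) were lower in *brm-1 clf-29* at more than 2-fold and an adjusted p under 0.05, and 277 (0.423%) were higher. All 113 members passed the filter on reads, since the rule already set a minimum in Col. Among the members 18 (15.9%) were lower and none was higher. The background over tiles with 10 RPM in Col was 0.156% lower and 0.444% higher. These 18 made up 36.7% of all tiles called lower. The median log2 change was -0.33 over the members and 0.02 over all tiles tested.

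Most calls fell on the enriched members. Of these, 15 of 27 (55.6%) were lower and all 27 had a negative log2 change, from -3.23 to -0.19 with a median of -1.22. The 27 tiles lay in 19 runs, and *WRKY23* and the chromosome 5 group held several of the 15, so the tiles are not independent units. Among all 15365 enriched tiles with 10 RPM in Col, 27 (0.176%) were lower and 42 (0.273%) higher, with a median of 0.01, and among the 12044 of them that also met the *clf-29* bound, 20 (0.166%) were lower with a median of -0.03. Both double mutant replicates lay below both *clf-29* replicates at 24 of the 27 enriched members, compared with 17.2% of all tiles tested and 24.3% of the enriched tiles that met the *clf-29* bound. Of the 26 members between the classes 3 (11.5%) were lower, with a median of -0.66, beside 0.156% of all tiles with 10 RPM in Col. None of the 60 members below the input was called by limma or limma-voom, and 11 were lower and 0 higher at an unadjusted p under 0.05. Over the 914 tiles with 10 RPM that lay below the input in Col neither test called a tile (0%), and 56 were lower and 24 higher at an unadjusted p under 0.05. The median log2 change was -0.19 in the 60 members and -0.11 in the 914 tiles. The rule held *clf-29* up at the 60 tiles but not at the 914, which favours lower values in the 60. No difference is therefore read from these counts and medians.

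**Figure D5:**
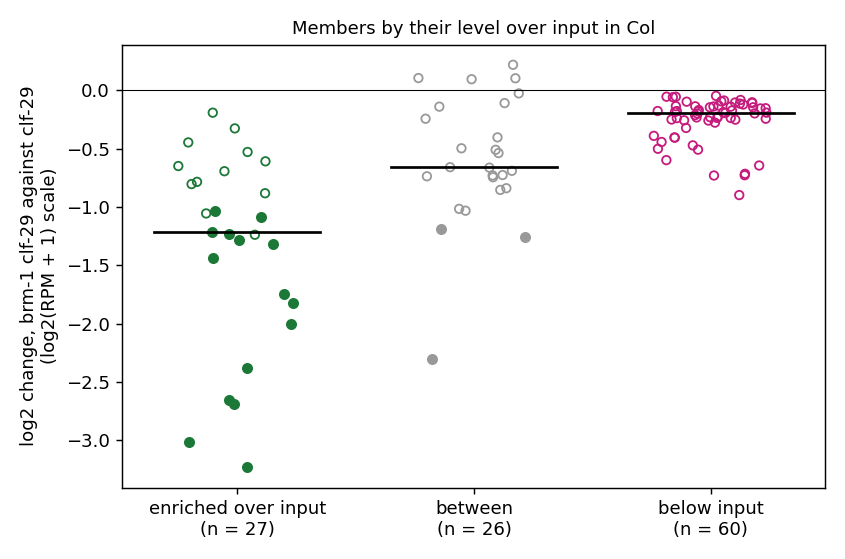
Log2 change of brm-1 clf-29 against clf-29 on the log2(RPM + 1) scale for each member, by its level over input in Col. Filled points are the 15 enriched and 3 intermediate members called lower, open points were not called, and the lines are medians of -1.22, -0.66 and -0.19.

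*WRKY23* held the 2 lowest log2 changes among the members on the log2(RPM + 1) scale, with -3.23 (SE 0.37, adjusted p = 3.0e-05) at the 3′ tile, -3.01 (SE 0.20, adjusted p = 2.2e-09) at the middle tile and -2.65 (SE 0.23, adjusted p = 3.1e-07) at the tile next to the start. The *AT5G61120* tiles had changes of -2.68 (SE 0.19, adjusted p = 8.1e-09) over its start, -2.38 (SE 0.17, adjusted p = 8.1e-09) at 24584001 and -1.75 (SE 0.20, adjusted p = 3.0e-05) at 24583001. The *GPT1* tiles had changes of -2.00 (SE 0.25, adjusted p = 7.3e-05) and -2.30 (SE 0.36, adjusted p = 0.0016). The other enriched tiles called lower were at *AT5G61090* (-1.82 and -1.44), *AT2G28315* (-1.32), *AT4G30975* with *MIR156b* (-1.28), *AT5G17850* (-1.23), *AT5G56990* (-1.22), *AT5G60760* (-1.08) and *AT5G61110* (-1.04). The *HDG1* tile had an adjusted p of 0.019 but a change of -0.88, short of 2-fold. The change of *HDA18* at 24573001 was -0.19 (SE 0.19, adjusted p = 0.76), with overlapping replicates. At *CYP81D11* both double mutant replicates lay below both *clf-29* replicates, and the change of -0.33 (SE 0.21, adjusted p = 0.57) was not called.

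Leaving out the second double mutant replicate reduced the calls to 10 members and 23 tiles in all, leaving out the first to 12 members and 23 tiles, leaving out the first *clf-29* replicate to 12 members, and leaving out either Col replicate to 15 members and 30 tiles. With the Col replicates as 1 sample 15 members, 13 of them enriched, and 30 tiles were lower. The middle and start tiles of *WRKY23* and the *AT5G61120* tiles at 24584001 and 24585001 were called lower under all 26 alternatives that gave a value for them, while those of *AT5G17850* and *AT5G61110* were called under 9 and 10 of the 26, the *MIR156b* tile at 15075001 and the *AT5G60760* tile at 24441001 under 19 each, and that of *AT2G28315* under 21.

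The members that lay between the classes had Col levels of 10.1 to 17.6 RPM and brought in single tiles of further genes. *FAF2*, a gene of the *FAF* family that acts on shoot meristem size, had 16.97 and 13.6 RPM in Col, 7.79 and 3.38 in *brm-1*, 21.2 and 16.1 in *clf-29*, and 13.8 and 11.2 in *brm-1 clf-29*. Its log2 change between *brm-1 clf-29* and *clf-29* was -0.54 (SE 0.30) and was not called by limma (adjusted p = 0.50). *IAA2*, an auxin-inducible Aux/IAA repressor gene, has its 3′ end in a tile that also holds the start of *AT3G23020* and had 14.8 and 14.2 RPM in Col, 5.84 and 6.01 in *brm-1*, 28.1 and 25.1 in *clf-29*, and 8.93 and 13.7 in *brm-1 clf-29*. That tile was called lower at -1.19 (SE 0.25, adjusted p = 0.024), under 17 of the 26 alternatives, and the call was lost when any 1 of the *clf-29* or *brm-1 clf-29* replicates was left out. The tile shared by *SHW1* and *PPME1*, named after its values were seen, was the remaining member called lower, at -1.25 (SE 0.29, adjusted p = 0.036).

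The study's list of 18 genes with a decrease in *brm-1* was chosen on these libraries and is not independent of the members. Members overlapped 8 of the 18 by at least 1 bp: *FAF2*, *WRKY23*, *IAA2*, *AT3G57460*, *GPT1*, *AT5G61090*, *AT5G61120* and *MYB53*. *AT5G61100* had a member only in the 1000 bp upstream of its start. At *AT3G57460* the levels were 13.1 and 12.3 RPM in Col and 6.12 and 5.63 for *brm-1*, and at *MYB53*, an R2R3 transcription factor gene, 16.7 and 17.2 RPM for Col and 8.07 and 9.39 for *brm-1*. The double mutant had 6.49 and 4.47 RPM at *AT3G57460*, against 8.86 and 10.4 in *clf-29*. At *MYB53* it had 11.0 and 9.26 RPM, against 13.1 and 14.2 in *clf-29*. Neither change was called by limma, with log2 changes of -0.73 (adjusted p = 0.31) and -0.40 (adjusted p = 0.56). Members overlapped 1 of 24 *Aux/IAA* genes and 1 of 4 *FAF* genes. Both lists include genes, such as *IAA10* and *FAF3*, without a tile of 10 RPM in both Col replicates, which could not hold a member. None overlapped *AG*, *AP3*, *FLC* or *FT*, which had such tiles. *ACT7*, *TUB2*, *BRM* and *CLF* had no such tile, so the absence of members there was fixed by the rule.

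The 60 members below the input had the highest read levels of all, with medians of 156 and 168 RPM in Col, 94.3 and 70.6 in *brm-1*, 131 and 110 in *clf-29*, and 124 and 97.5 in *brm-1 clf-29*. Their median Col input was 209 RPM. Of the 60, 59 (98.3%) exceeded 2 times the median input of all tiles, which was 7.60 RPM, against 91.7% of the 914 tiles below the input. The *brm-1* input had a median of 212 RPM at the 60 tiles, so the inputs of Col and the mutant were at a similar level there. In *brm-1 clf-29* and *clf-29* the replicates overlapped at 32 of the 60 tiles. Both double mutant replicates were lower at 28, against 20.6% of the 914 tiles below the input. The rule held *clf-29* up at the 60 tiles but not at the 914, which favours the first share, so no difference is read from the 2.

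These tiles were clustered in place and partly repeated in sequence. Of the 60, 38 lay on chromosome 5 and 13 on chromosome 2, and 33 of those on chromosome 5 lay between 11667001 and 12062000. A gene was overlapped by 18 (30%), against 32.7% of the 914 tiles with 10 RPM below the input in Col. Another 41 of the 60 (68.3%), against 58.8%, lay neither in a gene nor in the 1000 bp upstream of one. The genes overlapped were *AT1G40104*, *AT2G07981*, *AT2G08986*, *AT2G07599*, *AT2G07696*, *AT2G07722*, *AOX2*, *MIR5643a* and the pseudogenes *AT1G40103*, *AT2G07880* and *AT5G31702*, of which those of chromosome 2 at 3351001 and 3438001, *AOX2*, *MIR5643a* and *AT5G31702* lie outside the rule for named genes. *AOX2*, which encodes an alternative oxidase, had the lowest Col level of the 60 tiles, with 10.9 and 11.6 RPM in Col, 5.84 and 6.39 in *brm-1*, 13.9 and 15.2 in *clf-29*, 10.1 and 10.2 in *brm-1 clf-29*, and 12.3 RPM in the Col input. A median of 49.9% of the 51-mers of the 60 tiles occurred once in the genome, compared with 100% at the enriched members. The median was 28.25% at the 914 tiles below the input, so repeated sequence is not particular to these members. Between 30.3% and 40.2% of the kept reads per library at the 60 tiles lay at such unique 51-mers. In the first Col replicate 73.9% of the reads at these tiles were redundant and in the Col input 80.4%, against 49.8% and 38.6% at the enriched members. What part repeated sequence had in the lower *brm-1* signal there was not tested.

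The *brm-1* to Col ratio of the 60 tiles had a median of 0.52, while the 914 tiles with 10 RPM that lay below the input in Col had a median of 0.40. The ratio of *clf-29* to Col had medians of 0.77 and 0.44 in the same sets, the first of which the rule bounds from below. The tile *AT1G40104* at chr1:15083001 lay just inside the *brm-1* bound at a ratio of the higher *brm-1* to the lower Col replicate of 0.665, as did those of *AT2G08986* (0.666) and *AT2G07981* (0.669). Just outside lay tiles of *LOX5* (0.671), *AT3G13430* (0.673) and *AT2G33350* (0.674).

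The 113 members formed 76 runs of adjacent tiles, of which 57 were single tiles, 9 were pairs and 10 had 3 tiles or more, up to 5. Only *WRKY23* and *AT5G61120* gave runs of at least 3 tiles with enrichment over input, and the other long runs were made of tiles below the input on chromosomes 1, 2 and 5. The motif GAGAGA, read on both strands, stood in 74.1% of the enriched members, in 57.9% of the enriched tiles with 10 RPM in Col and in 58.7% of all tiles. The telobox AAACCCTA stood in 22.2%, 16.4% and 11.7%, the G-box CACGTG in 22.2%, 13.4% and 10.3%, and the auxin response element TGTCTC in 55.6%, 42.4% and 43.1% of these sets. In the members between the classes the 4 motifs stood in 76.9%, 19.2%, 11.5% and 46.2%, in the same order, so the GAGAGA share was not particular to the enriched members. With 27 tiles that share genes and neighbours, these shares are descriptions. The GC content had a median of 38.5% in the enriched members, 37.8% in the members between the classes and 37.4% in those below the input. It was 34.5% in the enriched tiles with 10 RPM in Col and 36.6% in all tiles.

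Which tiles met the rule depended on the scaling, and the libraries also differed away from the mark. At tiles not enriched in any genotype the median level was 3.01 and 2.98 RPM in Col, 1.39 and 1.13 in *brm-1*, 1.54 and 1.42 in *clf-29*, and 1.22 and 1.28 in *brm-1 clf-29*. When the libraries were scaled on these tiles, 4 of the 113 members, 3 of them enriched, still met the rule, and when each library's background was taken off, 21 did, 11 of them enriched. With median-of-ratios scaling on the tested tiles 27 members, 12 of them enriched, still met the rule, and with that on Col-enriched tiles 53, 18 of them enriched. The middle and start tiles of *WRKY23* met it under all 9 other scalings and read treatments on the same tiles, and the *AT5G61120* tiles at 24584001 and 24585001 under 8 of the 9, the exception being scaling on the tiles not enriched. Without the first or the second *brm-1* replicate 319 and 176 tiles met the rule, and without the first or the second Col replicate 197 and 193.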

How the data were processed

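Reads of 8 H3K27me3 ChIP libraries and 4 inputs were used. Per the methods, the authors mapped them with Bowtie (0.12.7 in the submitters' processing notes) against TAIR10, retaining reads with a perfect and unique match. The deposited files list 1 read of 51 bp per line and hold no counts. Of the reads, 85.1% to 96.1% per library lay at 51-mers that occur once in TAIR10.1, whose nuclear chromosome lengths equal those of TAIR10. Gene models and sequences are from RefSeq. Transposable element annotation was not used here.

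One read was kept per position and strand, its 5′ end was moved by 75 bp, and reads were counted per 1 kb tile and divided by the library's kept reads (RPM). RPM shows the distribution of the mark, not its amount. Limma 3.58.1 (R 4.3.3; lmFit, eBayes with trend) was fitted to log2(RPM + 1) of all 8 ChIP libraries, and p-values were adjusted by Benjamini-Hochberg over all tiles tested. The scale understates changes of tiles with few reads. On simulated data for *brm-1 clf-29* against *clf-29*, 200 of 65424 tiles were changed 3-fold, and 99% of raised and 72% of lowered tiles were recovered, beside 16 false calls. The changed tiles were drawn from those with a mean of at least 10 RPM over the genotypes, and all libraries were given the same spread. The recovery therefore does not cover tiles with fewer reads or the unequal spread of the real replicates. Each genotype has 1 input, so ratios to input carry no input error. The T-DNA alleles cannot be checked in ChIP reads.

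The members, gene lists and alternatives were chosen with earlier results of these data known. Named were the 12 enriched runs with the lowest *brm-1* to Col ratio, runs of at least 3 tiles, the 6 enriched members highest in Col, members at listed genes, the 4 lowest and 4 highest log2 changes among enriched members, and the 3 tiles on each side of the bound. The alternatives covered redundant reads, shift, tile grid, depth, scaling, background, the block, the pseudocount, the filter, the test and the call, leaving out replicates, the enrichment threshold and the overlap with genes. Taking off a background in proportion to the input, unique 51-mers only, and Col as 1 sample were added after seeing the data.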

Additional observations from a re-analysis of the deposited data

How the results depend on the processing

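The rule was met by 113 tiles, by 58 with redundant reads kept, 197 with median-of-ratios scaling on Col-enriched tiles, 70 when scaled on unenriched tiles, 18 at a bound of 0.5, 64 at 20 RPM or more in Col, 27 when only enriched tiles were taken, and 105 to 319 when 1 replicate was left out. Other alternatives stayed within 1.5 times in number but not in identity: of the 113 members, 27 met the rule among 163 tiles with median-of-ratios scaling on tested tiles, 53 among 154 with an input-proportional background taken off, 72 among 118 after thinning, 21 among 81 with the background taken off, and 75 among 112 with unique 51-mers. Enrichment in Col was met by 44 members at a ratio of 1.5 and by 16 at 3. Members lower in *brm-1 clf-29* than in *clf-29* numbered 18, and 9 with the background taken off, 4 with an input-proportional background taken off, 11 with no filter and 10 to 17 when 1 replicate was left out. No member was called higher under any of these alternatives.

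Over all tiles, 49 were lower and 277 higher. The counts were 16 and 83 with the background taken off, 22 and 61 with an input-proportional background taken off, 28 and 170 at a pseudocount of 4, and 20 and 113 with no filter. Lower tiles numbered 88 at more than 1.5-fold, 95 by adjusted p alone and 30 with Col as 1 sample, and higher tiles 181 after thinning. Leaving out 1 replicate gave 23 to 48 lower and 49 to 441 higher. The *HDA18* tile at 24573001 changed sign without the first *clf-29* replicate, with values from -0.41 to 0.027 over the left-out replicates. The causes were not tested.

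With the replicate number as a block, 22 members were lower, and 124 tiles were lower and 587 higher in all. The correlation of replicate differences between genotypes was -0.02 to 0.17 over 2 numbers, and the samples share only a number. Depth limits the tiles near 10 RPM, which rest on 21.1 to 36.5 reads per library.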
